A study of Mus musculus with 31 samples.

Results

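The 28 genes described here make cholesterol, sense sterols or carry them: 18 enzymes of the synthesis pathway, 5 genes of the sterol-sensing machinery and 5 genes of sterol transport and export. They were taken by symbol from a count table of 47729 genes in 31 RNA-seq libraries of laser-microdissected nerve from mouse embryos, and all 28 were measured well enough to be tested. The study asked how olfactory ensheathing cells (OECs), the glia that wrap olfactory axons, differ from the Schwann cells of other nerves. The embryos carried a Sox10:Histone2BVenus transgene, which makes the nuclei of both glia fluorescent and guided the laser. The groups were olfactory nerve in the connective tissue under the olfactory epithelium at E11.5 (4 libraries), E13.5 (7) and E16.5 (4), the olfactory nerve layer (ONL) on the olfactory bulb at E13.5 (5), inner and outer ONL at E16.5 (4 each) and branches of the trigeminal nerve, which hold Schwann cells, at E16.5 (3). Inner and outer ONL pieces were told apart by place alone, nearest to or furthest from the bulb. The paper reports that these pieces did not separate inner from outer OECs, and that bulb tissue was represented in the inner ones. The trigeminal pieces of E16.5 came from the sections that gave the olfactory pieces, so the E16.5 groups share embryos, although no source ties a library to its embryo. Each sample pooled tissue of several sections with whatever lay next to the glia.

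Cholesterol is built from acetyl-CoA through mevalonate to squalene, which is closed to lanosterol and then trimmed to cholesterol. When sterol in the endoplasmic reticulum is low, Scap escorts the transcription factors encoded by Srebf1 and Srebf2 to the Golgi for activation; when sterol is plentiful, Insig1 and Insig2 hold Scap back. Srebf2 products mainly drive the synthesis enzymes and Srebf1 products mainly fatty acid synthesis, while oxysterols switch on the exporters Abca1 and Abcg1 through liver X receptors. Glia that wrap axons need sterol for membrane, and Schwann cells use this pathway to make myelin.

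The libraries of E11.5 and E13.5 stand apart from their labels. Of these 16, 10 were averaged by the authors, in their table of group means, under another early group than the one in the library's title. Means over the authors' grouping matched that table to a median of 0.000114% at most over 1667 genes, and means over the titles missed it by 3.60% to 32.3%. The library most correlated with each early library shared the authors' group in 16 of 16 cases and the title group in 10 of 16. The authors' grouping is used here, and the counts of called members at an early stage are also given by the titles, with the named members whose call or sign the titles change. Total counts ran from 13379107 to 16800784 in the olfactory libraries of E16.5, from 30221586 to 32508725 in trigeminal nerve and from 3512627 to 36705535 at the early stages. The lowest count of any member in any library was 8, for Fdps.

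Promoter sequence was read for the 22 members in the RefSeq promoter table (GRCm38.p6), over the 250 bases before each start site and on both strands. The classic sterol regulatory element SRE-1 and a palindromic E-box, both known to bind the Srebf products, were in 0 of 22, against 0.0999% and 0.0777% of 27025 genes. Near matches to these letters were not counted. With shares this low among all genes, 0 of 22 cannot show that the members lack such elements. A looser form, TCACNCCAC, was in 1 of 22, Hmgcs1, against 1.44% of genes. The CCAAT box was in 19 of 22 and the GC box GGGCGG in 21 of 22, against 41.1% and 38.2% of genes. The 5 promoters shown belong to members that the comparisons below turn on: the enzyme genes Hmgcs1 and Tm7sf2, the sensors Insig1 and Srebf2 and the exporter Abca1. They run 5′ to 3′ on the gene's strand up to the base before the RefSeq start site, with capitals on the looser element, CCAAT boxes and GC boxes in either orientation. GENCODE, which gave the exon lengths, starts some genes further upstream. By GENCODE the Tm7sf2 window lies inside the gene, and the windows of Insig1 and Srebf2 run past the gene's start.
Hmgcs1, chr13:119690101-119690350, + strand: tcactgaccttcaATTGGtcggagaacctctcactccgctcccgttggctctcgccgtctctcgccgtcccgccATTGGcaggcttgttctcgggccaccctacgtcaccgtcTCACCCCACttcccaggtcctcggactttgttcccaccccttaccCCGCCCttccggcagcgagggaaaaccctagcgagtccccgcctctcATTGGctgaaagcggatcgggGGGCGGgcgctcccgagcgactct
Tm7sf2, chr19:6067851-6068100, - strand: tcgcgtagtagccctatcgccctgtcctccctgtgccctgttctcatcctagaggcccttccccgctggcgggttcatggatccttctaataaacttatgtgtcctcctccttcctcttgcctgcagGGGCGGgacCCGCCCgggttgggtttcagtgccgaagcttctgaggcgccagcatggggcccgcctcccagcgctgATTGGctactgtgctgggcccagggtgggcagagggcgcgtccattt
Insig1, chr5:28071162-28071411, + strand: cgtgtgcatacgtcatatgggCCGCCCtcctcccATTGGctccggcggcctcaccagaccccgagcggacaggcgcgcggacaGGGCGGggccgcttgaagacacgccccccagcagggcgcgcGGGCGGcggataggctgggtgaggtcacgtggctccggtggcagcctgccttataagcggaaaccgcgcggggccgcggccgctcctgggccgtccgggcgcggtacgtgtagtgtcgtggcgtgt
Srebf2, chr15:82147019-82147268, + strand: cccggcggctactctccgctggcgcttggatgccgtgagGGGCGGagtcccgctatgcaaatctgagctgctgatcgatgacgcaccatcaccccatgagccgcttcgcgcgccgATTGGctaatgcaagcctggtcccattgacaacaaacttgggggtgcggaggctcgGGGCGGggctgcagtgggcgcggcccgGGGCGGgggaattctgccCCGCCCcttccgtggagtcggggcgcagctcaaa
Abca1, chr4:53159896-53160145, - strand: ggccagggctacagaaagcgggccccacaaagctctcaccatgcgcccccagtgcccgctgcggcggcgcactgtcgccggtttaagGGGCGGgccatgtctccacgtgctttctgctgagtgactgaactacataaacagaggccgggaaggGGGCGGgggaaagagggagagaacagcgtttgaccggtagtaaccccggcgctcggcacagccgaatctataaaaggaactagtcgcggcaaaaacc
The Hmgcs1 window holds 3 CCAAT boxes, 2 GC boxes and the looser element, which begins 137 bases before the start site. Tm7sf2, Insig1 and Srebf2 each have 1 CCAAT box, with 2, 3 and 4 GC boxes. Abca1 has 2 GC boxes and 0 CCAAT boxes. These are matches of letters, with no measurement of binding.

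Levels are CPM, counts scaled to a common library size after edgeR's TMM adjustment. Per kilobase of exon, which allows comparison between genes, Hmgcs1, the synthase that makes HMG-CoA, ranked first of the 28 in outer ONL (121 CPM per kb), trigeminal nerve (76.1) and E11.5 nerve (84.8), and came after Npc2 in E16.5 olfactory nerve (40.4 against 41.7). Npc2, a small sterol carrier of the lysosome, stayed at 48.8 CPM per kb in outer ONL and 54.1 in trigeminal nerve. Fdps, farnesyl diphosphate synthase, and the exporter Abcg1 were the lowest members in outer ONL, at 1.52 and 1.19 CPM per kb. The kit does not mark strand, so reads on exon bases that overlap another gene cannot be told apart. This touches 10 members, from 166 bases in Cyp51 and 175 in Srebf1 to 1124 of 4208 in Fdps. The gene that overlaps Fdps is protein-coding, and the methods do not say how such reads were counted. The low level of Fdps may therefore not be that of its transcript, which was not tested. Acat2 may share reads with its near-identical neighbour Acat3.

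**Figure D1:**
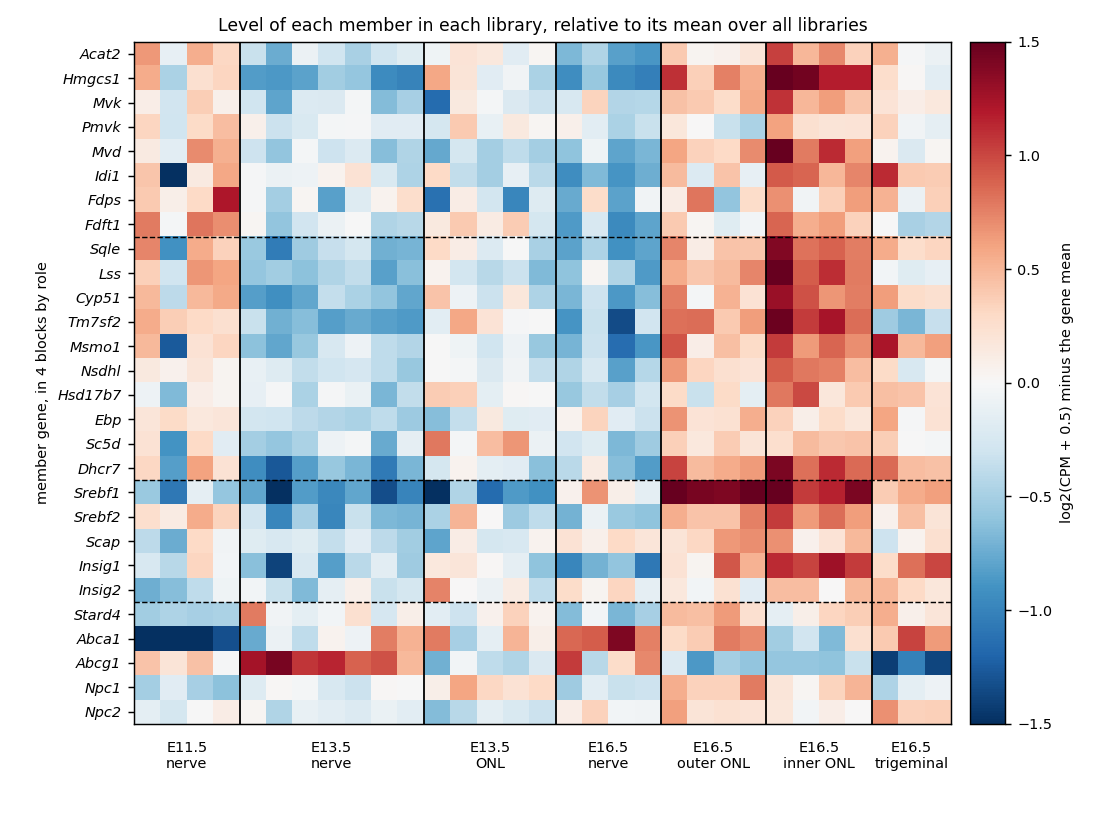
Each column is 1 of the 31 libraries, in 7 groups, and each row 1 member; colour is the log2 level (CPM + 0.5) minus the gene's mean over all libraries, and dashed lines part early enzymes, late enzymes, sensors and transport genes. The enzyme rows are mostly blue in E13.5 and E16.5 olfactory nerve and reddest in inner ONL, and Abca1 and Abcg1 do not follow them.

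At E16.5, the synthesis genes were higher in outer ONL than in olfactory nerve, the comparison with the most called members of the 9 run here. By edgeR's quasi-likelihood test (adjusted p under 0.05 over 19332 genes), 20 members were higher, 1 was lower and 7 were not called, where 10.2% of all genes were called higher and 11.8% lower. The rise took in 15 of 18 enzymes, 6 of 8 up to squalene and 9 of 10 after it, with 3 of 5 sensing genes and 2 of 5 transport genes. The median log2 fold change was 0.86 over the members and 0.01 over all genes. In 18 members every outer ONL library lay above every olfactory nerve library (11.4% of all genes).

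Hmgcs1 had the largest difference. It stood at 176, 227, 173 and 166 CPM in olfactory nerve and at 723, 434, 569 and 493 CPM in outer ONL, a log2 fold change of 1.58 ± 0.20 (SE, adjusted p = 7.89e-07), or 2.99-fold. The groups did not overlap, although the second nerve library lay well above the other 3. Tm7sf2, a sterol reductase acting soon after lanosterol, stood at 13.1, 19.5, 9.43 and 20.05 CPM in olfactory nerve and 44.0, 44.6, 32.7 and 38.3 CPM in outer ONL (log2 fold change 1.36 ± 0.20, adjusted p = 6.46e-06). Again every outer ONL library was above every nerve library. Sqle, which epoxidises squalene upstream of Tm7sf2, rose by 1.17 on the log2 scale, and Msmo1, which acts after Tm7sf2 and oxidises the methyl groups at C4, by 1.21.

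The other enzymes that rose did so by 0.43 to 1.09 on the log2 scale. At the low end were Ebp, a sterol isomerase (0.43, adjusted p = 0.0473), and Mvk, mevalonate kinase (0.58, adjusted p = 0.0456), both with overlapping libraries. Same-numbered libraries of these 2 groups deviate together, and with replicate number as a block 20 members were called instead of 21: Ebp was no longer called (adjusted p = 0.137). Counting each fit without a library as 1 alternative, Ebp, Mvk and Sc5d were lost under 14, 11 and 4 alternatives, with adjusted p up to 0.281, 0.199 and 0.101. The enzymes not called were Fdps (0.54 ± 0.35), Hsd17b7, a keto-reductase (0.48 ± 0.20, adjusted p = 0.0791), and Pmvk, phosphomevalonate kinase, with 49.0 to 72.3 CPM in nerve and 49.1 to 77.0 CPM in outer ONL.

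Both Srebf genes rose, while of the Insig pair Insig1 rose and Insig2 was not called. Srebf1 (chromosome 11, 60199089 to 60222581, GRCm38) stood at 105, 161, 107 and 91.0 CPM in olfactory nerve and 373, 272, 267 and 350 CPM in outer ONL (log2 fold change 1.44 ± 0.24, adjusted p = 3.35e-05). Srebf2 stood at 93.5, 144, 104 and 101 CPM against 224, 206, 206 and 259 CPM (1.02 ± 0.19, adjusted p = 0.000236). Both were separated without overlap. Insig1, a sterol-regulated retention factor that is itself a target of the Srebf products, stood at 11.9, 14.4, 15.7 and 11.1 CPM in nerve and 27.9, 24.6, 46.0 and 34.6 CPM in outer ONL (1.32 ± 0.24, adjusted p = 9.68e-05). Insig2, its relative, stood at 67.1, 56.7, 69.0 and 50.2 CPM in nerve and 61.9, 53.8, 64.7 and 48.9 CPM in outer ONL, overlapping throughout (-0.08 ± 0.19, adjusted p = 0.823). Scap, the escort protein, was not called (0.29 ± 0.19, adjusted p = 0.324).

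Among the transport genes, Stard4, a cytosolic sterol carrier, rose by 0.92 on the log2 scale and Npc1, the lysosomal partner of Npc2, by 0.86. Abcg1 (chromosome 17, 31057675 to 31117988), which passes cholesterol to lipoprotein particles, went the other way: it stood at 26.8, 9.34, 15.4 and 21.2 CPM in olfactory nerve and 10.9, 6.72, 8.75 and 8.24 CPM in outer ONL (-1.07 ± 0.24, adjusted p = 0.00139). The second nerve library fell inside the outer ONL range. Abca1, which loads cholesterol onto apolipoprotein, stood at 104, 107, 151 and 96.1 CPM in nerve and 69.0, 74.1, 97.6 and 92.7 CPM in outer ONL (-0.45 ± 0.29, adjusted p = 0.288), and these libraries overlapped. Npc2 was not called either (0.22 ± 0.13, adjusted p = 0.244).

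Fatty acid synthesis, the arm tied to Srebf1, was higher too: 12 of 15 listed genes rose in outer ONL, 0 fell, and the median log2 fold change was 0.97. The largest were the desaturases Fads2 (1.65 ± 0.20) and Scd2 (1.48 ± 0.19) and the fatty acid synthase Fasn (1.30 ± 0.17), with adjusted p values of 2.24e-07, 5.96e-07 and 1.19e-06. Of 8 genes for liver X receptors and their targets, 2 rose and 1 fell, among them the receptor Nr1h3 (1.61 ± 0.41, adjusted p = 0.00455). Of 18 genes of other sterol handling, 6 rose and 3 fell, led by the lipoprotein receptor Lrp8 (2.14 ± 0.34, adjusted p = 2.15e-05).

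The tissue differed in more than these genes. The summed level of 8 glial markers shared by OECs and Schwann cells was 18728 to 32936 CPM in outer ONL and 1685 to 3930 CPM in olfactory nerve (6 of 8 called higher), and 5 ONL glial markers summed to 3522 to 6212 against 143 to 295 CPM (5 of 5 higher). Mesenchyme markers summed to 5768 to 11102 in outer ONL and 9779 to 16376 CPM in nerve (5 of 8 lower), and epithelial markers to 8.36 to 16.7 against 141 to 468 CPM (5 of 6 lower). Their part in the member differences was not tested. In bulk pieces, fewer cells of a type and less RNA per cell cannot be told apart. Scaling by total counts moved the median of all genes by -0.14 on the log2 scale, so that 34.1% rather than 46.4% of all calls were higher; 17 members were then called higher and 1 lower.

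Measured against the Schwann cell nerve, the low group was olfactory nerve. There, 12 members were lower than in trigeminal nerve, 1 was higher and 15 were not called (10.6% of all genes were called lower and 13.0% higher), with a median log2 fold change of -0.48 against -0.01 for all genes. All 18 enzymes had a negative value and 9 passed the test. In 12 members each nerve library lay below each trigeminal library (17.0% of all genes).

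Insig1 showed the widest gap in this direction, with 11.9, 14.4, 15.7 and 11.1 CPM in olfactory nerve and 29.1, 42.8 and 48.5 CPM in trigeminal nerve (-1.59 ± 0.25, adjusted p = 1.38e-05). Msmo1 stood at 89.1, 115, 65.5 and 78.8 CPM against 338, 203 and 222 CPM (-1.54 ± 0.27, adjusted p = 5.61e-05). Idi1, the isomerase that interconverts the isoprene units, stood at 54.1, 65.4, 56.0 and 62.5 CPM against 226, 137 and 136 CPM (-1.48 ± 0.30, adjusted p = 0.000352). The first trigeminal library was far above the others in Msmo1 and Idi1 and was the lowest in Insig1, and in each gene the lowest trigeminal library was above the highest nerve library. The remaining calls were Acat2, Hmgcs1, Sqle, Cyp51, Nsdhl, Hsd17b7, Dhcr7, Srebf2 and Stard4, with log2 fold changes of -0.49 to -1.12. Nsdhl, Srebf2 and Stard4 were lost under 7, 2 and 2 alternatives, with adjusted p up to 0.256, 0.091 and 0.0978. Cyp51 demethylates lanosterol, Nsdhl takes off the carboxyl group at C4, and Dhcr7 is the reductase that yields cholesterol.

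Abcg1 was the member higher in olfactory nerve: its trigeminal libraries stood at 4.43, 6.03 and 4.56 CPM, all below the 9.34 to 26.8 CPM of olfactory nerve (1.86 ± 0.27, adjusted p = 5.19e-06). Abca1 was at 74.2, 114 and 88.6 CPM in trigeminal nerve, within reach of the nerve libraries above (0.31 ± 0.31, adjusted p = 0.528). Insig2 was at 78.4, 68.0 and 62.4 CPM in trigeminal nerve and was not called. Of the fatty acid genes, 6 of 15 were lower in olfactory nerve and 1 was higher. The largest difference was in Me1, malic enzyme, which supplies NADPH (-3.31 ± 0.27, adjusted p = 2.29e-10). Acss2, which makes acetyl-CoA from acetate, was the higher one (1.36 ± 0.25, adjusted p = 0.000142). Among the 18 other sterol handling genes, 3 were higher and 4 lower.

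Between outer ONL and trigeminal nerve, 6 members were called, all higher in outer ONL. The count is near the share of all genes called, 25.8% (2617 higher and 2372 lower). The median log2 fold change was 0.15 over the members and 0.01 over all genes. Tm7sf2 stood at 16.9, 15.1 and 19.3 CPM in trigeminal nerve, far under the 32.7 to 44.6 CPM of outer ONL (1.22 ± 0.22, adjusted p = 7.32e-05). Srebf1 stood at 131, 149 and 154 CPM, again below every outer ONL library (1.13 ± 0.26, adjusted p = 0.00134). Npc1 stood at 21.3, 26.8 and 27.9 CPM against 43.3, 37.7, 37.8 and 51.1 CPM (0.75 ± 0.16, adjusted p = 0.000848). Hmgcs1 (406, 341 and 302 CPM in trigeminal nerve) differed by 0.67 ± 0.22 (adjusted p = 0.0233), Lss, which closes the sterol rings, by 0.66, and Abcg1, low in both, by 0.79. Hmgcs1, Lss and Abcg1 were lost under 4, 2 and 7 alternatives.

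Most enzymes had similar levels in these groups, although the test does not show them equal. Sqle stood at 326, 212, 263 and 262 CPM in outer ONL and 288, 234 and 245 CPM in trigeminal nerve. Idi1, Msmo1 and Insig1 had negative values that did not pass the test (-0.50 ± 0.30, -0.33 ± 0.27 and -0.27 ± 0.25, adjusted p = 0.231, 0.401 and 0.471). Of the fatty acid list, 7 of 15 genes were higher in outer ONL and 1, Me1, was lower (-2.14 ± 0.26, adjusted p = 1.67e-07). Myelin and promyelinating markers summed to 3637 to 5232 CPM in trigeminal nerve, 474 to 916 in olfactory nerve and 696 to 763 in outer ONL, and mesenchyme markers to 23324 to 27450 CPM in trigeminal nerve; their part was not tested. The comparisons between the 3 tissues share their libraries. Total-count scaling moved the median of all genes by 0.25 for olfactory against trigeminal nerve (1 member higher, 9 lower; 77.5% rather than 55.1% of all calls higher, and 65.5% by the upper quartile) and by 0.12 for outer ONL against trigeminal nerve (9 higher; 62.7% rather than 52.5%). The member median for olfactory against trigeminal nerve was then -0.22, with all genes at 0.24.

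**Figure D2:**
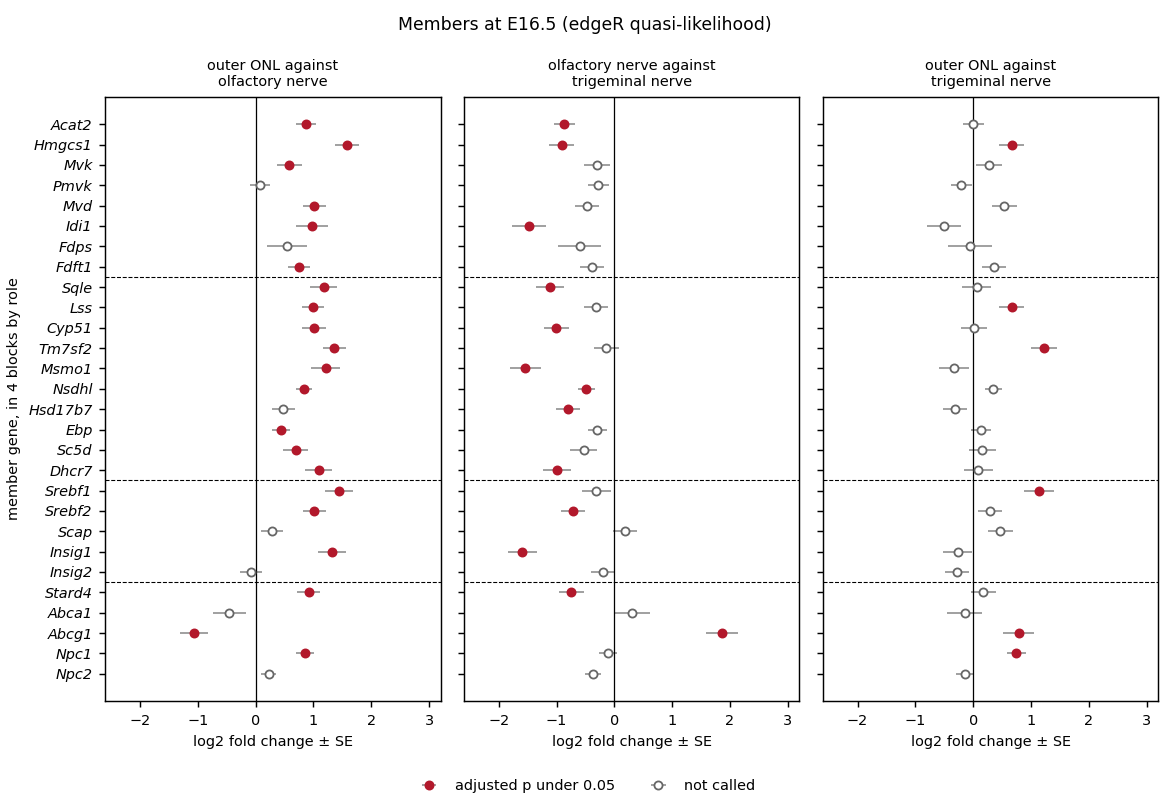
Log2 fold change with its SE (x axis) of the 28 members (y axis) in 3 comparisons at E16.5; filled points had an adjusted p under 0.05. The enzymes lie right of 0 in outer ONL against olfactory nerve and left of 0 in olfactory against trigeminal nerve, and 20 and 12 members were called in those directions.

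Inner ONL had the highest mean of the 7 groups for 15 of 18 enzymes, in part by less than the spread between libraries. The share of all genes with their highest mean there is not given here. Against outer ONL, 17 of the 18 enzymes had a positive log2 fold change, with a median of 0.49 against -0.05 over all genes. Yet 4 were called and 0 members were lower (8.20% and 5.94% of all genes). The count ran from 0 to 11 under the alternatives, so it is weakly fixed. The E16.5 libraries alone gave 11, with or without replicate number as a block. Hmgcs1 stood at 1048, 923, 763 and 764 CPM in inner ONL, all above the highest outer ONL library of 723 CPM (0.66 ± 0.20, adjusted p = 0.024). Lss stood at 138, 88.02, 101 and 80.8 CPM against 69.0, 61.9, 65.1 and 77.8 CPM (0.57 ± 0.19, adjusted p = 0.0413), also without overlap. Hsd17b7 stood at 61.5, 70.6, 39.8 and 46.8 CPM against 43.3, 28.01, 43.4 and 31.9 CPM (0.58 ± 0.19, adjusted p = 0.0443), with 1 inner library inside the outer range. Acat2, which makes acetoacetyl-CoA, stood at 302, 209, 243 and 189 CPM against 194, 152, 155 and 168 CPM, also touching (0.50 ± 0.17, adjusted p = 0.0473). None of the 4 was called under every alternative, and without the first inner ONL library or the second outer ONL library 0 members were called.

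Srebf1 stood at 445, 208, 225 and 270 CPM in inner ONL, on both sides of the outer ONL range (-0.14 ± 0.23, adjusted p = 0.809), while Srebf2 stood at 318, 238, 273 and 237 CPM. Insig1, at 52.7, 48.8, 58.4 and 50.1 CPM, was above every outer ONL library without passing the test; Insig2 was at 76.5, 76.6, 55.7 and 77.6 CPM. Abca1, at 39.3, 46.1, 35.6 and 67.1 CPM, was below every outer ONL library (-0.82 ± 0.29, adjusted p = 0.0534), and Abcg1 stayed between 8.17 and 9.95 CPM. Neuron and axon markers summed to 2313 to 4631 CPM in inner ONL and 222 to 1141 in outer ONL, and mesenchyme markers to 932 to 2192 against 5768 to 11102 CPM. Bulb and forebrain markers summed to 120 to 244 CPM in inner ONL and 6.83 to 49.5 in outer ONL (6 of 8 called higher). The part of these markers was not tested.

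**Figure D3:**
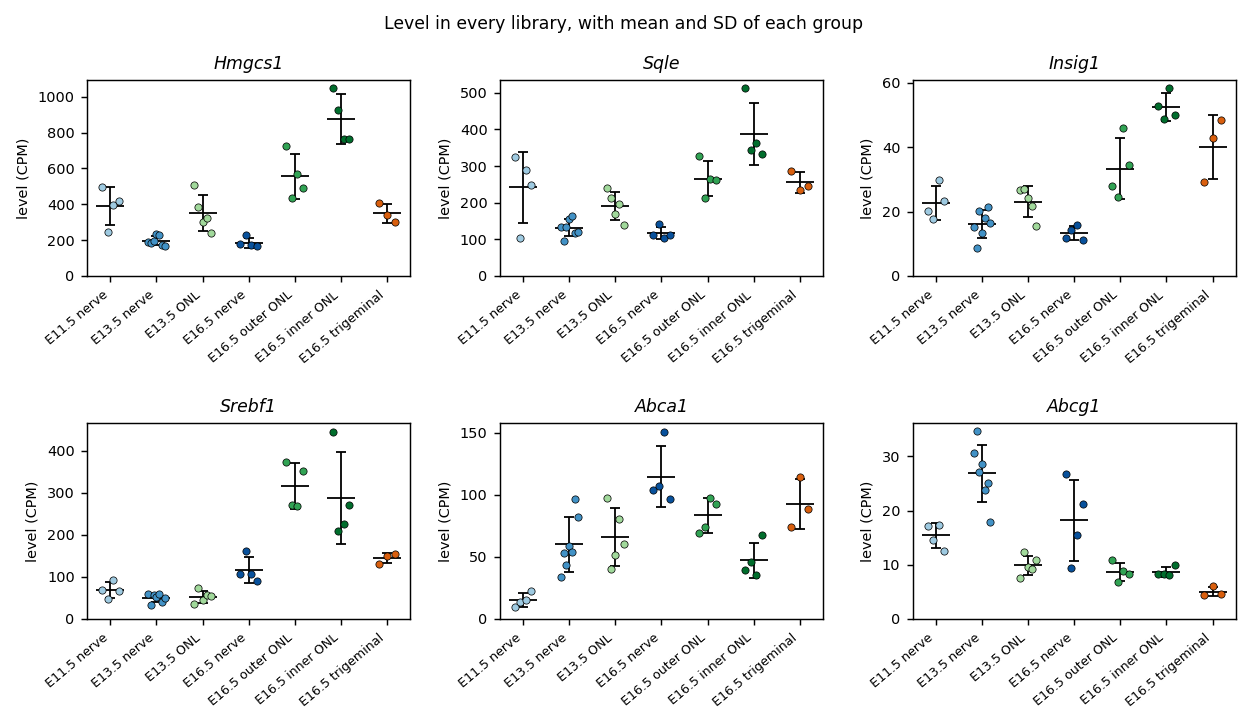
Level (CPM, linear axis from 0) of 6 members in every library of the 7 groups; bars give the mean and SD. Hmgcs1, Sqle and Insig1 are lowest in olfactory nerve at E13.5 and E16.5, Srebf1 is highest in the ONL at E16.5 (208 to 445 CPM), and Abca1 is lowest at E11.5 (9.59 to 22.4 CPM).

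In some groups, 1 library lay at an end of the range for most enzymes. The second olfactory nerve library of E16.5 was the highest of its 4 for 15 of 18 enzymes, against 30.8% of 10727 genes of at least 10 CPM. The first inner ONL library was the highest of 4 for 16 of 18 (36.5% of genes), and the first trigeminal library the highest of 3 for 17 of 18 (34.4%). In E11.5 nerve, 1 library was the lowest of 4 for 15 of 18 enzymes (40.5% of genes), with a summed enzyme level of 1257 CPM against 2242 to 2441 CPM in the other 3. In other groups the enzymes did not share an end. In the 7 E13.5 nerve libraries, no library was the highest for more than 6 enzymes or the lowest for more than 8, and in the E13.5 ONL the first library was the highest for 9 and the lowest for 6. These counts are a description, since the enzymes of 1 library are not independent values.

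Over the early stages, synthesis genes fell in olfactory nerve between E11.5 and E13.5. Of the members, 12 were lower at E13.5, 4 were higher and 12 were not called (16.4% of all genes lower, 20.2% higher), with a median of -0.47 against 0.05. All 18 enzymes had a negative value and 11 passed the test. Grouped by titles, 7 members were lower, 5 of them enzymes, and 1 was higher. That grouping called 1581 of 19332 genes lower and 1799 higher. Of the 12 lower members, 4 were also called by titles: Hmgcs1, Cyp51, Tm7sf2 and Dhcr7. Without the low E11.5 library just named, 20 were lower and 4 higher. Over the fits that left out 1 library in turn, 6330 to 7010 of all genes were called in either direction. Some early libraries came from the same embryo (the E11.5 pieces came from 2 embryos), so these p values are too small. The E13.5 nerve (7) and ONL (5) pieces came from 4 embryos. P values of the later comparisons with an E13.5 group may therefore be too small as well.

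Tm7sf2 stood at 36.4, 32.1, 30.4 and 29.2 CPM at E11.5 and between 13.51 and 19.5 CPM (median 14.4) in the 7 E13.5 libraries (-1.09 ± 0.17, adjusted p = 1.15e-05). The stages did not overlap. Dhcr7 stood at 69.1, 30.997, 84.2 and 64.3 CPM at E11.5 and 22.7 to 37.2 CPM (median 31.2) at E13.5 (-1.01 ± 0.20, adjusted p = 0.000182). Cyp51 stood at 181, 97.8, 181 and 191 CPM against 67.9 to 101 CPM (median 74.6), a log2 fold change of -1.003 ± 0.179 (adjusted p = 5.79e-05). For both, the second E11.5 library fell within the E13.5 range. Srebf2 fell by 0.94 and Hmgcs1 by 0.99 on the log2 scale, while Srebf1 (47.5 to 91.5 CPM at E11.5, 32.9 to 58.4 CPM at E13.5), Insig1 and Insig2 were not called. By titles Srebf2 was not called (adjusted p = 0.074), and Insig1 (-0.63, adjusted p = 0.0317) and Insig2 (-0.47, adjusted p = 0.0413) were called lower.

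The exporters rose as the enzymes fell. Abca1 stood at 9.59, 13.7, 15.1 and 22.4 CPM at E11.5 and between 33.3 and 96.8 CPM (median 53.5) at E13.5, without overlap (1.98 ± 0.28, adjusted p = 2.05e-06). Abcg1 stood at 17.2, 14.5, 17.3 and 12.5 CPM against 17.9 to 34.7 CPM, median 27.1 (0.80 ± 0.21, adjusted p = 0.00418). Stard4 rose by 0.63 and Npc1 by 0.34. By titles, Abcg1 was called higher (1.41) and Abca1, Stard4 and Npc1 were not called, Abca1 and Npc1 with the opposite sign. Endothelial markers summed to 20.5 to 133 CPM at E11.5 and 249 to 395 at E13.5, neuron and axon markers to 3253 to 4186 and 1105 to 2135, and mesenchyme markers to 2390 to 3012 and 3658 to 6655 CPM; their part was not tested.

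At E13.5 the ONL was already above olfactory nerve in part of the pathway, with 10 members higher, 1 lower and 17 not called (15.4% and 16.1% of all genes), a median of 0.24 and 8 of 18 enzymes called. By titles, 11 members were higher, 10 of them enzymes, and 1 was lower, with 1717 of 19332 genes called higher and 1704 lower. Of the 10 higher members, 8 were also called by titles, without Sc5d and Npc1. Tm7sf2 stood at 22.1, 37.2, 28.4, 24.4 and 24.6 CPM in the ONL, above every nerve library (0.87 ± 0.16, adjusted p = 0.000111). Hmgcs1 stood at 507, 385, 300, 325 and 242 CPM against 168 to 235 CPM (median 189) in nerve (0.84 ± 0.16, adjusted p = 0.000155), again without overlap. Sc5d, a sterol desaturase, stood at 60.6, 34.2, 48.2, 55.7 and 32.9 CPM against 20.5 to 34.3 CPM, median 25.0, with a little overlap (0.74 ± 0.18, adjusted p = 0.00152). By titles Sc5d was not called (0.26, adjusted p = 0.31).

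Abcg1 was again lower on the ONL side, at 7.47, 12.3, 9.62, 9.14 and 10.8 CPM against the 17.9 to 34.7 CPM of nerve (-1.43 ± 0.21, adjusted p = 2.36e-06), and by titles the value was -0.70 (adjusted p = 0.0368). Abca1 ranged from 39.8 to 97.4 CPM in the ONL, overlapped the nerve throughout and was not called (by titles -1.01, adjusted p = 0.0558). Srebf2 (105 to 218 CPM in the ONL, 77.5 to 125 CPM in nerve) was called (0.49 ± 0.16, adjusted p = 0.0167), while Srebf1, at 34.9 to 73.5 and 32.9 to 58.4 CPM, was not. Insig1 (15.5 to 27.1 CPM) and Insig2 (42.2 to 92.7 CPM) were not called. Neuron and axon markers summed to 3825 to 6019 CPM in the E13.5 ONL, against 1105 to 2135 CPM in nerve (6 of 8 called higher, by titles 1). Bulb and forebrain markers summed to 590 to 750 against 24.1 to 56.3 CPM (6 of 8 called higher, by titles 0 higher and 2 lower). Glial markers summed to 4307 to 6742 against 489 to 1078 CPM, but 5 of 8 were called higher and 2 lower. By titles 2 glial markers were higher and 2 lower, with a median log2 fold change of -0.83. The part of these markers was not tested.

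From E13.5 to E16.5 in olfactory nerve, 4 members rose, 3 fell and 21 were not called, with a median of -0.08. These counts are near the shares of all genes, 15.2% called higher and 13.6% lower. By titles 2 rose and 2 fell, beside 2401 and 2444 of 19332 genes. Srebf1 rose from 32.9 to 58.4 CPM (median 51.0) to the 91.0 to 161 CPM given above (1.23 ± 0.20, adjusted p = 4.12e-05), without overlap. Abca1 rose by 0.93 ± 0.25 (adjusted p = 0.00534), with a touch of overlap. Idi1 fell from 75.6 to 121 CPM (median 98.4) to 54.1 to 65.4 CPM (-0.73 ± 0.25, adjusted p = 0.0286), and Stard4 fell from 22.3 to 46.2 CPM (median 25.9) to 16.8, 25.8, 16.4 and 18.7 CPM (-0.59 ± 0.18, adjusted p = 0.0128). Ebp (0.40) and Scap (0.49) also rose and Abcg1 fell by 0.56, but these were not called by titles. Mesenchyme markers summed to 3658 to 6655 CPM at E13.5 and 9779 to 16376 CPM at E16.5 (6 of 8 called higher), and glial markers to 489 to 1078 and 1685 to 3930 CPM (6 of 8 higher); their part was not tested.

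In the ONL, outer ONL at E16.5 was above the E13.5 ONL in 13 members and below it in 0, with 15 not called (21.9% and 20.0% of all genes); the median was 0.52 against 0.00. By titles 11 were higher and 1 lower, where 3511 of 19332 genes were called higher and 3299 lower. Of the 13, 6 were called both ways: Hmgcs1, Nsdhl, Dhcr7, Srebf1, Scap and Npc2. Srebf1 stood out: 34.9, 73.5, 45.1, 55.6 and 53.3 CPM at E13.5 against 267 to 373 CPM (2.58 ± 0.23, adjusted p = 5.31e-10), or 5.98-fold. Mvd, which decarboxylates mevalonate diphosphate, stood at 26.8, 38.2, 32.2, 35.4 and 32.1 CPM against 69.7, 58.7, 57.0 and 75.4 CPM (0.98 ± 0.19, adjusted p = 9.88e-05). Dhcr7 stood at 46.2, 57.7, 49.9, 49.3 and 35.7 CPM against 112, 77.0, 81.8 and 86.8 CPM (0.90 ± 0.22, adjusted p = 0.00113). Lss stood at 48.7, 38.6, 34.9, 37.3 and 29.4 CPM against 61.9 to 77.8 CPM (0.87 ± 0.18, adjusted p = 0.000291). In these 4 genes the stages did not overlap. By titles Srebf1 (2.28) and Dhcr7 (0.66) were called, while Mvd (0.28, adjusted p = 0.301) and Lss (0.32, adjusted p = 0.225) were not. Neuron and axon markers summed to 3825 to 6019 CPM in the E13.5 ONL and 222 to 1141 in outer ONL (8 of 8 called lower), bulb and forebrain markers to 590 to 750 and 6.83 to 49.5 CPM (7 of 8 lower), and glial markers to 4307 to 6742 and 18728 to 32936 CPM (6 of 8 higher); their part was not tested. Of the fatty acid list, 10 of 15 rose (13 by titles), led by the desaturase Scd1 (3.28 ± 0.27, adjusted p = 1.18e-10).

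**Figure D4:**
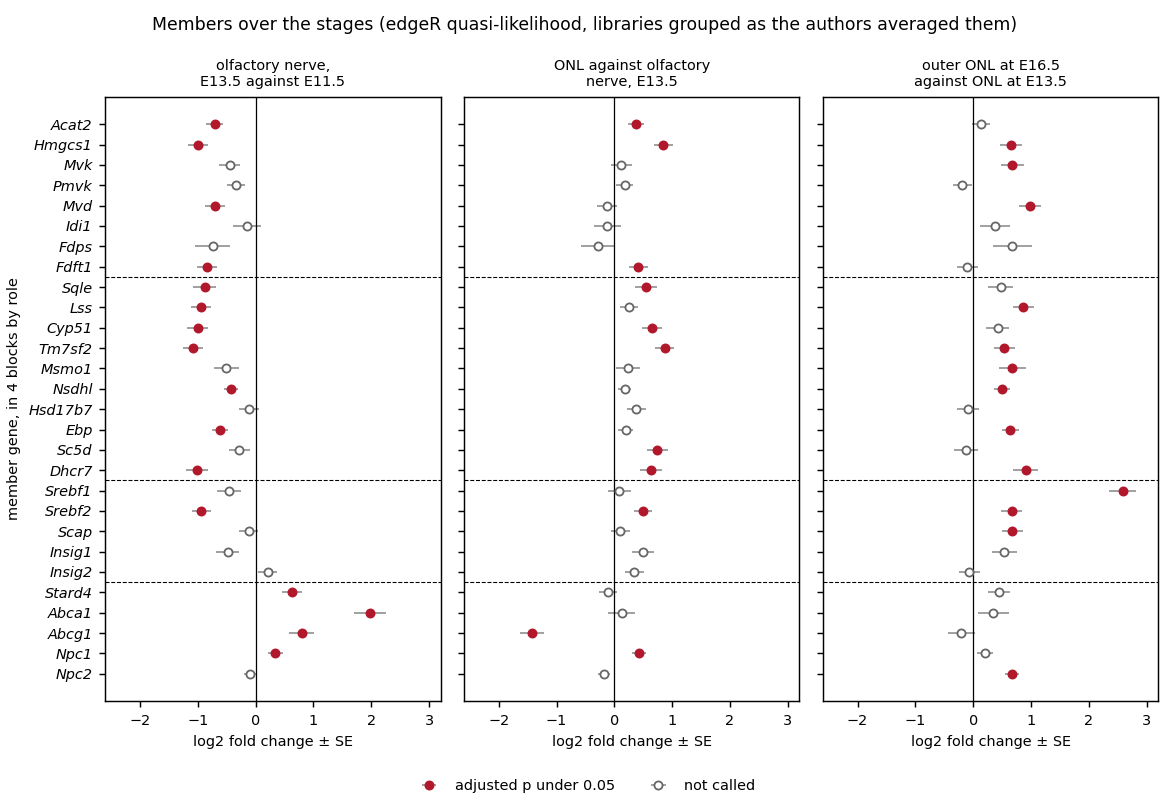
Log2 fold change with its SE (x axis) of the 28 members (y axis), libraries grouped as the authors averaged them; filled points had an adjusted p under 0.05. From E11.5 to E13.5 in nerve the enzymes lie left of 0 and Abca1 far right (1.98). For outer ONL at E16.5 against the E13.5 ONL, Srebf1 lies furthest right (2.58).

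The difference between ONL and nerve was tested directly for change between E13.5 and E16.5. The ONL side was outer ONL alone at E16.5, while the E13.5 ONL was not split into inner and outer pieces. Stage and part of the ONL cannot be told apart here. The difference grew in 6 members and shrank in 0 (5.59% and 6.75% of all genes), with a median of 0.48 against 0.04. By titles it grew in 4 members: Srebf1 and Stard4, which are among the 6, and Insig1 and Npc1, which are not. Over all 19332 genes, the difference by titles grew in 1320 and shrank in 1103. For Srebf1 the log2 difference grew by 1.36 ± 0.31 (adjusted p = 0.00294), and for Stard4 by 1.03 ± 0.26 (adjusted p = 0.0061); both were called under every alternative. For Mvd it grew by 1.14 ± 0.26 (adjusted p = 0.00301), from -0.13 at E13.5, and for Idi1 by 1.10 ± 0.36 (adjusted p = 0.0412), from -0.12. Grouped by titles, neither was called: Mvd grew by 0.43 (adjusted p = 0.36), from 0.58, and Idi1 by 0.92 (adjusted p = 0.106). Nsdhl (0.66) and Msmo1 (0.98) completed the list, their E13.5 differences being 0.18 ± 0.11 and 0.23 ± 0.21 without a call, and they too were not called by titles (adjusted p = 0.0599 and 0.13). Stard4 stood at 21.5 to 34.1 CPM in the E13.5 ONL, overlapping the 22.3 to 46.2 CPM of nerve, and at 31.5 to 41.8 CPM in outer ONL, above the 16.4 to 25.8 CPM of E16.5 nerve. By the same test neuron and axon markers moved down in 8 of 8 and cell cycle markers up in 7 of 8; their part was not tested.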

How the data were processed

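The authors deposited raw counts of reads per Ensembl gene, made by aligning paired reads of SMART-seq V4 and Nextera XT libraries to mm10 (Ensembl annotation of GRCm38) with TopHat2 2.1.0 and counting them with HTSeq, as the methods and processing notes state. The deposited counts carry no normalization. A single row naming no gene was left out, and GENCODE M21 gave the symbols and exon lengths.

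Counts were scaled by TMM and tested in edgeR 4.0.16 (R 4.3.3) with the quasi-likelihood test, with filterByExpr and 1 model holding a mean for each of the 7 groups over 31 libraries. P-values were adjusted by Benjamini-Hochberg over 19332 genes and called under 0.05. The value after ± is an SE for a log2 fold change. Early libraries were grouped as the authors averaged them. Alternatives were DESeq2 1.42.0, total-count and upper quartile scaling, no or a stricter filter, and grouping by titles. Others were fits of only the groups compared, of only E16.5 without or with a block for replicate number, and without each library in turn. The methods name fewer embryos than pieces at E11.5 and E13.5 and do not tie libraries to embryos.

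Libraries of E16.5 nerve and outer ONL with the same number deviated together over 10154 genes (correlations 0.253 to 0.580; other pairs -0.420 to 0.364), so the numbers were taken to pair these 2 groups, from the values alone. On simulated counts of 19332 genes for outer ONL against olfactory nerve, the fit recovered 89 of 100 genes changed 4-fold and 10 of 100 changed 2-fold, and called 4 unchanged genes. The simulation gave every gene the same set spread between libraries rather than its own. The shares recovered hold for that spread and do not tell how many changes of the members were missed. A member near 2-fold, Mvd, was called in the data (1.01 ± 0.20, edgeR adjusted p = 0.000333).

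The members and the other lists were chosen with earlier results of these data known. Library values are given for up to 4 called members per comparison with the largest absolute log2 fold change whose higher group averaged 10 CPM or more, and for the pairs Insig1 and Insig2, Srebf1 and Srebf2, Abca1 and Abcg1; Sqle was added after its values were seen. Of the other lists, up to 3 called genes are named by the same rule. Other genes of the pathway are not reported here.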

Additional observations from a re-analysis of the deposited data

Results flagged for a closer look

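Of 168 sets of libraries tested (28 members in 6 groups of 4 to 7), 9 held a library far from the others by Dixon's test, where chance gives about 1 in 20. Hmgcs1 was at 226.928 CPM in the second olfactory nerve library of E16.5 (others 166 to 176). In inner ONL, Pmvk was at 104.519 and Sqle at 513.58 CPM in the first library (others 78.4 to 80.8 and 333 to 362), Insig2 at 55.6649 CPM in the third (others 76.5 to 77.6) and Abcg1 at 9.94539 CPM in the fourth (others 8.17 to 8.28). Cyp51 was at 97.7987 CPM in the low E11.5 nerve library, whose title gives it as E13.5 ONL replicate 3 (others 181 to 191). In the second E13.5 nerve library, Tm7sf2 was at 19.458 CPM (others 13.51 to 15.7) and Stard4 at 46.1616 CPM (others 22.3 to 31.7). Npc2 was at 325.678 CPM in the first outer ONL library (others 242 to 248.7).

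The log2 difference between ONL (outer ONL alone at E16.5) and nerve was larger at E16.5 than at E13.5, by the test of the change itself, for Srebf1 (1.36), Mvd (1.14), Idi1 (1.10), Stard4 (1.03), Msmo1 (0.98) and Nsdhl (0.66), with edgeR adjusted p of 0.00294, 0.00301, 0.0412, 0.0061, 0.0443 and 0.0131. Grouping the libraries by titles kept the calls of Srebf1 and Stard4 and lost those of Mvd, Idi1, Msmo1 and Nsdhl.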

How the results depend on the processing

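The count for inner against outer ONL at E16.5 changed with the processing. Instead of 4 members, 9 were called by DESeq2 (8 higher and 1 lower) and 9 with total-count scaling. The replicate block gave 11, the E16.5 libraries alone 11, the stricter filter 10, the 2 groups alone 7 and no filter 1. With libraries grouped by titles 0 were called, and 0 to 8 when 1 library was left out. Over all genes, the main fit called 2733, and DESeq2 called 1738 higher and 1346 lower. Total-count scaling called 1546 higher and 1141 lower, and fits without 1 library called 2012 to 2665. Grouping by titles gave 8 called members for olfactory nerve at E13.5 against E11.5 (16) and 4 for E16.5 against E13.5 (7). It also turned the sign of Mvd (0.11), Abca1 (-0.23) and Npc1 (-0.37) for E13.5 against E11.5 nerve and of Npc1 (-0.30), Mvd (0.58, then called) and Idi1 (0.058) for E13.5 ONL against nerve. Among members not called, it turned Insig2 (0.21 to -0.47, then called) and Fdps (-0.75 to 0.28) for E13.5 against E11.5 nerve, and Abca1 (0.12 to -1.01), Insig2 (0.35 to -0.15) and Fdps (-0.29 to 0.77) for the E13.5 ONL against nerve. By titles all-gene calls fell to 1658 for inner against outer ONL, 3380 for E13.5 against E11.5 nerve, 3421 for E13.5 ONL against nerve and 4845 for E16.5 against E13.5 nerve. The cause of each was not tested.

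Leaving out 1 library gave the following counts of called members, with those of all genes in brackets. Outer ONL against olfactory nerve had 18 to 21 (3218 to 4097). Against trigeminal nerve, outer ONL had 4 to 6 (3986 to 4993) and olfactory nerve 11 to 16 (3302 to 4198). The E13.5 ONL against nerve had 7 to 12 (5435 to 5901), with 7 without E11.5 ON replicate 2, by title. E13.5 against E11.5 nerve had 15 to 24 (6330 to 7010). E16.5 against E13.5 nerve had 3 to 8 (4116 to 5382), with 3 without E16.5 ON replicate 1. Outer ONL against the E13.5 ONL had 12 to 16 (7104 to 8115). The change of the ONL difference with stage had 3 to 9 (1868 to 2476), with 3 without E16.5 ON replicate 3 or outer ONL replicate 1. The replicate block gave 20 called members for outer ONL against olfactory nerve, 5 for outer ONL and 13 for olfactory nerve against trigeminal nerve; the other E16.5 groups share embryos, but their same-numbered libraries did not all deviate together (1 or 2 pairs over 0.1 in each), so their numbers were not taken as pairs. Genes at low counts, Fdps above all, were measured least precisely.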

Other observations

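Lipid genes outside the 28 also shifted with stage. In olfactory nerve from E11.5 to E13.5, 6 of 15 fatty acid genes fell and 0 rose (16.4% of all genes lower, 20.2% higher), led by Mid1ip1, an activator of acetyl-CoA carboxylase (-1.04 ± 0.21, adjusted p = 0.0003), and Acly, which makes cytosolic acetyl-CoA (-0.75 ± 0.18, adjusted p = 0.00165). By titles 4 fell and 1 rose, and Mid1ip1 and Acly were not called. Of 8 genes for liver X receptors and their targets, 5 fell and 2 rose over this interval (2 and 2 by titles). From E13.5 to E16.5, 8 of 15 fatty acid genes rose in nerve and 0 fell (15.2% of all genes higher; 7 by titles), led by Scd1 (2.24 ± 0.23, adjusted p = 2.68e-08). Of the liver X list, 5 of 8 rose in nerve over the same interval (4 by titles), among them the receptor Nr1h2 (0.80 ± 0.16, adjusted p = 0.000506). In outer ONL at E16.5, 4 of these 8 were higher than in the E13.5 ONL (2 by titles), where 21.9% of all genes were called higher. Among the 4 was Nr1h3 (2.56 ± 0.40, adjusted p = 6.18e-06). At E13.5, Lrp8 was already higher in the ONL than in nerve (3.11 ± 0.28, adjusted p = 5.35e-10), but by titles it was not called (-0.17).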
